A study of Homo sapiens with 12 samples.

Results

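Expressed loci without a gene symbol were rows of the gene table of PANC-1 cells that carried a FAST DB identifier and coordinates but no gene symbol, and whose normalized read count averaged at least 50 over the 9 PANC-1 libraries. There were 2628 such loci among 48114 rows, which is 5.46% of all rows and 12.3% of the 21404 rows without a symbol. Another 15250 rows reached the same mean and carried a symbol. The level in PANC-1 chose the loci, so their levels in these libraries are a description, given with no test. Just inside the limit lay GSHG0037020 at 50.03, GSHG0017305 at 50.033 and GSHG0024936 at 50.111, and just outside it lay GSHG0046629 at 49.876, GSHG0032583 at 49.855 and GSHG0032711 at 49.791.

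The libraries were polyA-selected RNA of 2 human pancreatic ductal adenocarcinoma cell lines, sequenced in read pairs of 150 bases. PANC-1, a line of the basal-like subtype, received for 48 h a control siRNA (siCtrl), siRNA against QKI (siQKI, 40 nM) or siRNA against RBFOX2 (siRBFOX2, 40 nM), with 3 libraries in each group. HPAF-II, a line of the classical subtype, was measured after control siRNA for 48 h, with 3 libraries. Each siRNA was a pool of sequences, each group is 1 cell line, and no source used here says that the 3 libraries of a group came from separate experiments, so the p-values measure the spread between these libraries only.

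A row without a symbol can be many things. Gene catalogues name protein-coding genes and well-studied noncoding RNAs, while antisense transcripts, unspliced introns, long noncoding RNAs known only by a clone name and copies of genes often stay numbered. Long noncoding RNAs act as RNA without being translated, antisense transcripts run on the opposite strand of a gene, and processed pseudogenes are copies of a spliced messenger RNA put back into the genome. Mitochondria carry their own small genome, which is copied into long transcripts and cut into ribosomal, transfer and messenger RNAs. QKI and RBFOX2 are RNA-binding proteins that bind introns beside exons and change which exons are kept, and QKI also acts on RNA stability.

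The siRNAs lowered their targets. QKI read 25909, 24539 and 26150 normalized counts in siCtrl and 4629.7, 5453.2 and 5020.2 in siQKI, a log2 fold change of -2.34 ± 0.06 (SE, limma, adjusted p = 9.15e-13). RBFOX2 read 15355, 15508 and 15424 in siCtrl and 2402.9, 2171.4 and 1711.7 in siRBFOX2, a change of -2.89 ± 0.09 (limma, adjusted p = 4.7e-11). The lines kept their labelled character, with log2 ratios of HPAF-II over PANC-1 of -10.01 for the mesenchymal gene VIM (-14.13 without HPAF-II replicate 1, which stood at 15.18 rescaled counts beside 0.2832 and 0.3003), 6.09 and 4.94 for the epithelial genes CDH1 and EPCAM and 5.09 for GATA6, a marker of the classical subtype. The PANC-1 libraries totalled 292248837 to 376192091 count steps and the HPAF-II libraries 226697015 to 309720537, where a step is the smallest difference between values of a library. Most low values were multiples of 3 steps (82.102 to 84.794%), so a step cannot be read as 1 fragment and the number of fragments is not known.

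By GENCODE release 29, the largest class was that of 861 loci (32.8%) that overlapped an exon of an annotated gene without matching its extent. A further 596 lay only in introns and 174 lay outside GENCODE genes. 447 loci matched the extent of a long noncoding RNA gene, 69 that of a pseudogene, 46 that of a protein-coding gene and 6 that of a small or other RNA, where a match means that the shared bases make up at least 0.5 of the bases covered by either. The remaining classes were 17 loci of the mitochondrial genome and 412 short loci of at most 50 bases elsewhere. Of the matched genes, 162 were antisense, 113 intergenic long noncoding and 93 were models still to be experimentally tested, and 231 loci touched no GENCODE gene at all.

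Most of the loci lay within a named row. 1837 of 2628 (69.9%) overlapped a row with a symbol by at least 1 base, 1517 of them wholly inside it, and 255 overlapped more than 1. The strand is not part of the coordinates, and how reads over overlapping rows were assigned is not given in the sources used here, so reads of a locus and of the gene around it cannot be told apart by position. Of the 774 loci that overlapped none and lay on a chromosome with such rows, 208 were within 1000 bases of one and 549 within 10000 bases, with a median distance of 3753 bases.

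**Figure D1:**
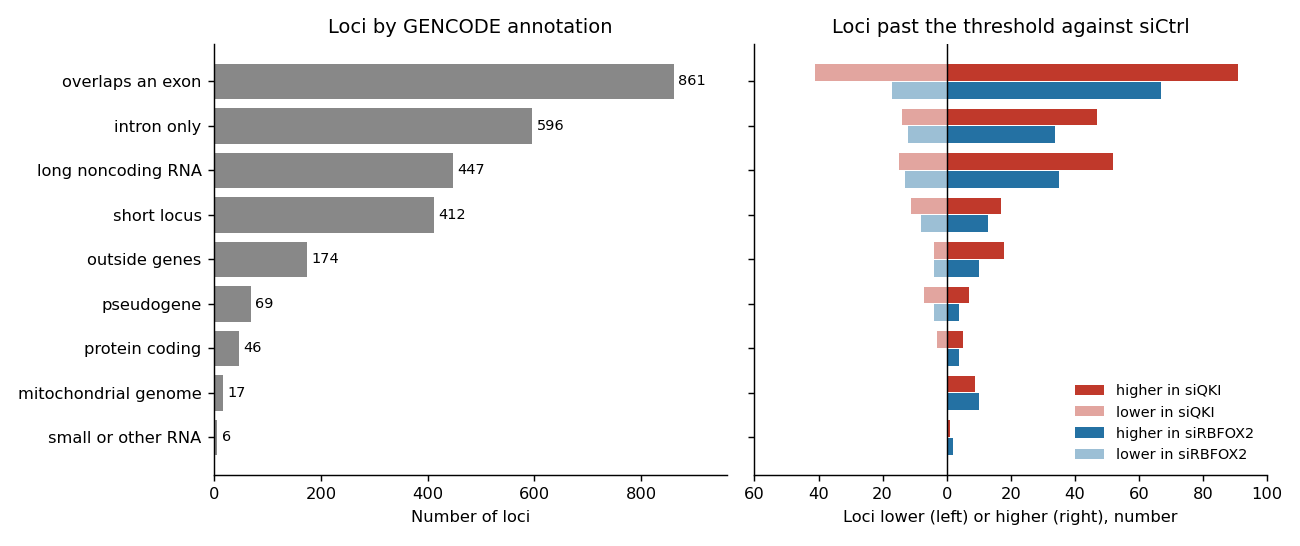
Left, number of the 2628 loci in each GENCODE class (bars, x axis from 0). Right, number of loci that passed the limma test at an adjusted p under 0.05 against siCtrl, lower to the left of 0 and higher to the right, in siQKI (red) and siRBFOX2 (blue). Loci that overlap an exon form the longest bars in both panels, and in each knockdown the pseudogene class alone had as many lower as higher loci, and the other classes had more higher ones.

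The loci were mostly weakly covered, and spanned a median of 2068 bases beside 27540 for rows with a symbol. Their mean normalized count had a median of 152.2 and a 90th percentile of 816.1, against a median of 4393 for rows with a symbol, and 883 of them (33.6%) lay under 100. Per kilobase of genomic span, the only length the files give, the median was 97.87 normalized counts against 137.9 for rows with a symbol. The coefficient of variation over the siCtrl libraries had a median of 20.3% against 5.745%, so the smallest change that could be told from the spread was larger for these loci. Another 36 loci reached 10000 or more, among them mitochondrial, ribosomal and pseudogene rows.

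Short loci are shown with their sequences because a locus of this size is shorter than a read, and whether its bases occur in another gene bears on what its count means. The 419 loci of at most 50 bases, mitochondrial ones included, had a median of 28 bases, and 363 of them spanned 26 to 31 bases. For 201 that lay inside an exon of a GENCODE transcript the sequence could be read, and 57 of these had an exact copy in a transcript of another gene. A copy is written in capitals, the strand is that of the GENCODE transcript, and positions are on GRCh38.

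The first 4 sequences lie in processed pseudogenes: GSHG0049187 at chr7:133035715-133035740 (-) in AC008038.1, GSHG0049155 at chr4:46724250-46724275 (-) in RAC1P2, GSHG0023834 at chr2:58251810-58251837 (+) in EIF3FP3 and GSHG0049213 at chr1:228687487-228687513 (+) in FTH1P2. Their letters occur unchanged in transcripts of EEF1G (a translation elongation factor subunit), RAC1 (a small GTPase), EIF3F (a translation initiation factor subunit) and FTH1 (the ferritin heavy chain), in that order. Those of GSHG0049187 also occur in AP002990.1. Those of GSHG0049213 also occur in BEST1, FTH1P11, FTH1P12, FTH1P16 and FTH1P21.
GSHG0049187: TTTGAGGGTGATGATGGATTCTGTGT
GSHG0049155: TGGTAGATGGAAAACCGGTGAATCTG
GSHG0023834: TGTTGGGAACTGTCGACAAACACTCAGT
GSHG0049213: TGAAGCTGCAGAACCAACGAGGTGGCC

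The next 4 had no exact copy in a transcript of another gene. GSHG0045373 at chrM:692-718 (+) lies in the mitochondrial ribosomal gene MT-RNR1, GSHG0045394 at chrM:15889-15914 (+) in the transfer RNA gene MT-TT, GSHG0018687 at chr17:82243122-82243150 (-) in an exon of the casein kinase gene CSNK1D, and GSHG0048941 at chr15:84201574-84201603 (-) in the pseudogene GOLGA2P7.
GSHG0045373: cacatgcaagcatccccgttccagtga
GSHG0045394: tccttgtagtataaactaatacacca
GSHG0018687: tcaatcctaggctggttactgtgtaagcg
GSHG0048941: tagcctgaagagtctgaactcacgttggca

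The 57 short loci with an exact copy had mean counts from 50.47 to 44050 with a median of 291.4, and the 141 others with a sequence listed had means from 51.04 to 98630 with a median of 115.6. GSHG0049187, the highest of the copied loci, read 43590, 44258 and 42594 in siCtrl, 42533, 42635 and 42398 in siQKI and 45700, 47077 and 45627 in siRBFOX2. Neither knockdown passed the test against siCtrl for it (adjusted p = 0.544 and 0.0879, limma), and EEF1G had adjusted p-values of 0.316 and 0.994. GSHG0023834 was lower in siQKI by 0.18 on the log2 scale (limma, adjusted p = 0.0134), where EIF3F fell by 0.13 (limma, adjusted p = 0.0394). GSHG0049213 was higher in siRBFOX2 by 0.47 (limma, adjusted p = 0.0184), where FTH1 rose by 0.42 (limma, adjusted p = 0.000123). BEST1, with the same letters, rose there by 0.46 (limma, adjusted p = 0.00224). Counts of such a locus may include reads of other genes with the same letters. Bases around the locus were not compared, so this was not tested.

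Longer pseudogene rows shared sequence with their parent genes too. Of the 69 matched pseudogenes, 64 shared at least 1 window of 50 bases with a transcript of another gene, and 29 shared at least 50% of their windows. The most abundant was EEF1A1P5 (GSHG0043919, chr9:133019419-133021165), a copy of the elongation factor EEF1A1, with a mean of 276070 beside 3237000 for EEF1A1. It shared 85.1% of windows with EEF1A1 and 89.6% with any other gene. RPL21P16 (mean 208400) and RPL9P9 (mean 100700), copies of ribosomal protein genes, stood above the rows of their parents RPL21 (28936) and RPL9 (10337). As totals these depend on how reads that match both copies were assigned, and the values of copy and parent are uncertain for that reason.

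Among 22 pseudogenes with a close copy among the named rows, 9 passed in siQKI and 5 in siRBFOX2, where 33.0% and 26.5% of all rows tested passed. The parent passed in the same direction for 7 of the 9 and 4 of the 5, while 2 parents in each knockdown passed where the copy did not. Of all rows with a symbol and a mean of at least 50, 45.7% passed in siQKI and 37.1% in siRBFOX2, in either direction. The row of TCEA1P2, a copy of the elongation factor gene TCEA1, fell by 0.35 in siQKI and 0.39 in siRBFOX2, and TCEA1 itself fell by 0.36 and 0.40 (limma, all 4 adjusted p-values from 3.67e-05 to 0.000115). PSMC1P1, a copy of a proteasome subunit gene, fell by 0.26 in siQKI (limma, adjusted p = 0.000335) and PSMC1 by 0.30 (limma, adjusted p = 0.00338). MTX1P1 differed from its parent MTX1, a mitochondrial import gene. It was higher in siQKI by 0.55 (limma, adjusted p = 0.00197) while MTX1 read -0.12 (limma, adjusted p = 0.268), and a test of that difference was not run. MSTO2P read -0.10 in siQKI (limma, adjusted p = 0.802) where MSTO1 fell by 0.73 (limma, adjusted p = 7.05e-08). These 4 pairs were chosen after their values were seen.

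The mitochondrial genome held the highest counts, because its genes appear in this table only as rows without a symbol. The 17 mitochondrial loci held 3.389 to 3.704% of the library total in siCtrl, 4.158 to 4.238% in siQKI and 3.981 to 4.386% in siRBFOX2. Every knockdown library lay above every siCtrl library, with means of 3.562% ± 0.16, 4.208% ± 0.0438 and 4.224% ± 0.214 (SD, n = 3 each). An exact two-sided permutation test gave p = 0.1 for each knockdown (adjusted 0.1 over 4 tests of library shares), which is the smallest p that 3 libraries against 3 allow. Outside the mitochondrial genome the loci took 0.6406% ± 0.00943 of siCtrl libraries, 0.6931% ± 0.0128 of siQKI and 0.6861% ± 0.00801 of siRBFOX2 libraries (SD, n = 3 each), again with p = 0.1 (exact permutation test, adjusted 0.1) for each knockdown.

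**Figure D2:**
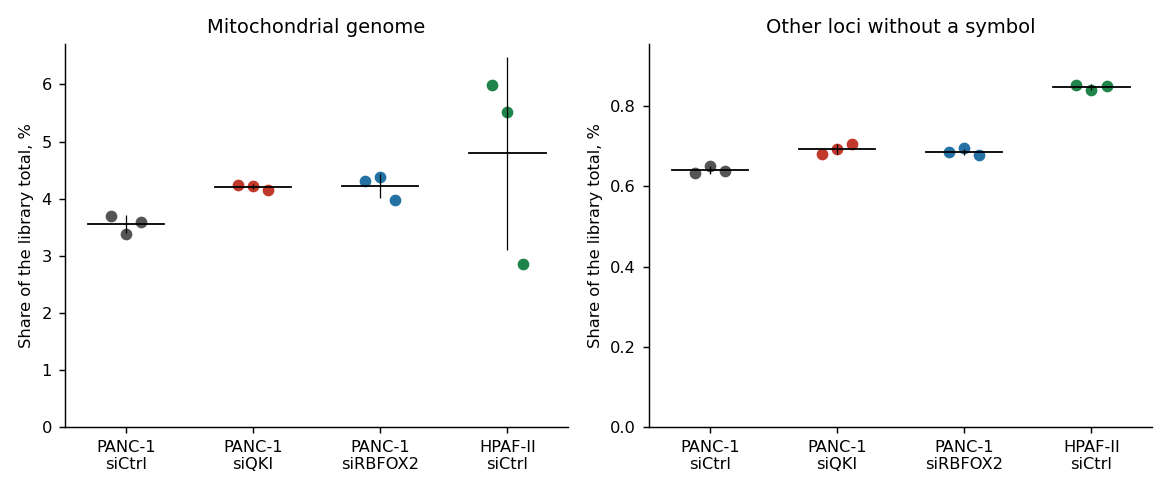
Share of the library total, in percent, taken by the mitochondrial loci (left) and by all other loci without a symbol (right) in each of the 12 libraries. Points are libraries, horizontal lines are means and vertical lines are 1 SD (n = 3). In both panels the siQKI and siRBFOX2 libraries of PANC-1 sit above all siCtrl libraries, and 1 HPAF-II library sits at 2.862% for the mitochondrial loci, apart from the other two.

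Row by row, 9 mitochondrial loci were higher and 0 lower in siQKI, and 10 were higher and 0 lower in siRBFOX2, with a median log2 fold change of 0.17 in each. These are 52.9% and 58.8% of the 17 loci, beside 14.9% and 12.0% of all rows tested that were higher. Rows with a symbol and a mean of 10000 or more passed in 61.0% and 52.9% of cases. Of those, 833 were higher and 2196 lower in siQKI, and 688 and 1942 in siRBFOX2. GSHG0045377 (chrM:1670-5512), which spans the large ribosomal RNA gene MT-RNR2 and the complex I genes MT-ND1 and MT-ND2, read 4617900, 4471300 and 4627800 in siCtrl, 5547000, 5335000 and 5541600 in siQKI and 5515900, 5348400 and 4936100 in siRBFOX2. All knockdown libraries lay above all siCtrl libraries, and it rose by 0.26 ± 0.05 in siQKI (SE, limma, adjusted p = 0.000877) and by 0.20 ± 0.05 in siRBFOX2 (limma, adjusted p = 0.00733). GSHG0045384 (chrM:14761-15953), which holds the cytochrome b gene MT-CYB, rose in siRBFOX2 by 0.24 (limma, adjusted p = 0.00111) and read 0.11 in siQKI (limma, adjusted p = 0.0769). Some mitochondrial rows lie wholly inside others, as GSHG0045394 (chrM:15889-15914) does inside GSHG0045384. Such rows may count the same fragments, so the mitochondrial loci are not independent.

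Among the mitochondrial loci, a transfer RNA row rose most in siQKI. GSHG0045395 over MT-TP, the proline transfer RNA, read 792.64, 866.52 and 1065.5 in siCtrl and 1368.4, 1606.4 and 1742.6 in siQKI. It rose by 0.80 ± 0.13 in siQKI (SE, limma, adjusted p = 0.000185) and by 0.59 ± 0.13 in siRBFOX2 (limma, adjusted p = 0.00298), where another mitochondrial locus reached 0.65. GSHG0045394 over MT-TT, whose sequence is given above and which lies inside GSHG0045384, rose by 0.41 in each knockdown (limma, adjusted p = 0.000257 and 0.000367). GSHG0045373 in MT-RNR1, at a mean of 98631 the most abundant short locus, read 0.09 in siQKI and -0.05 in siRBFOX2 and passed neither test (limma, adjusted p = 0.35 and 0.634).

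These counts leaned on single libraries and on how the spread was modelled. Without siCtrl replicate 2, 5 mitochondrial loci were higher in siQKI and 6 in siRBFOX2, and without the trend of variance with level, 3 and 7. Without siQKI replicate 3, 6 were higher in siQKI, and without siRBFOX2 replicate 2, 7 were higher in siRBFOX2. GSHG0045380 (chrM:5584-12142), which spans the genes from MT-CO1 to MT-ND4 and has the highest mean of all the loci, passed in siQKI at 0.16 (limma, adjusted p = 0.0248) but not without siCtrl replicate 2 (adjusted p = 0.117), siQKI replicate 1 (0.0867) or siQKI replicate 2 (0.105).

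Over all 2628 loci, 342 (13.0%) passed the test in siQKI, where 33.0% of all 22544 rows tested passed. 247 were higher (9.40%, beside 14.9% of all rows) and 95 lower (3.61%, beside 18.1%), and 95 of the 342 changed at least 2-fold, 71 higher and 24 lower. In siRBFOX2, 237 (9.02%) passed beside 26.5% of all rows, 179 higher (beside 12.0%) and 58 lower (beside 14.5%), with 46 higher and 14 lower at least 2-fold. The loci therefore passed less often than all rows in each direction, and of those that passed 72.2% were higher in siQKI and 75.5% in siRBFOX2. The median log2 fold change of the loci was 0.156 in siQKI and 0.105 in siRBFOX2, beside 0.0252 and 0.0115 over all rows tested.

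The count in siQKI was 215 without siQKI replicate 3. After rescaling to the upper quartile of each library, 82.6% of the loci that passed in siQKI were higher. The share that passed grew with the level, from 4.42% of loci with a mean under 100 to 39.1% of those from 1000 to under 10000 in siQKI, and rows with a symbol went from 9.73% to 48.6% over the same range. The siRBFOX2 shares were 2.27% and 34.2% for the loci and 5.32% and 38.7% for rows with a symbol. Low rows with a symbol leaned upward as well, so the lean is not particular to the loci. At means from 100 to under 500 in siQKI, 413 of the 555 rows with a symbol that passed were higher, with a median log2 fold change over the 2298 rows of 0.25, beside 108 of 147 and 0.154 for the loci. In siRBFOX2 at that level the counts were 300 of 373 and 77 of 92, with medians of 0.206 and 0.107.

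**Figure D3:**
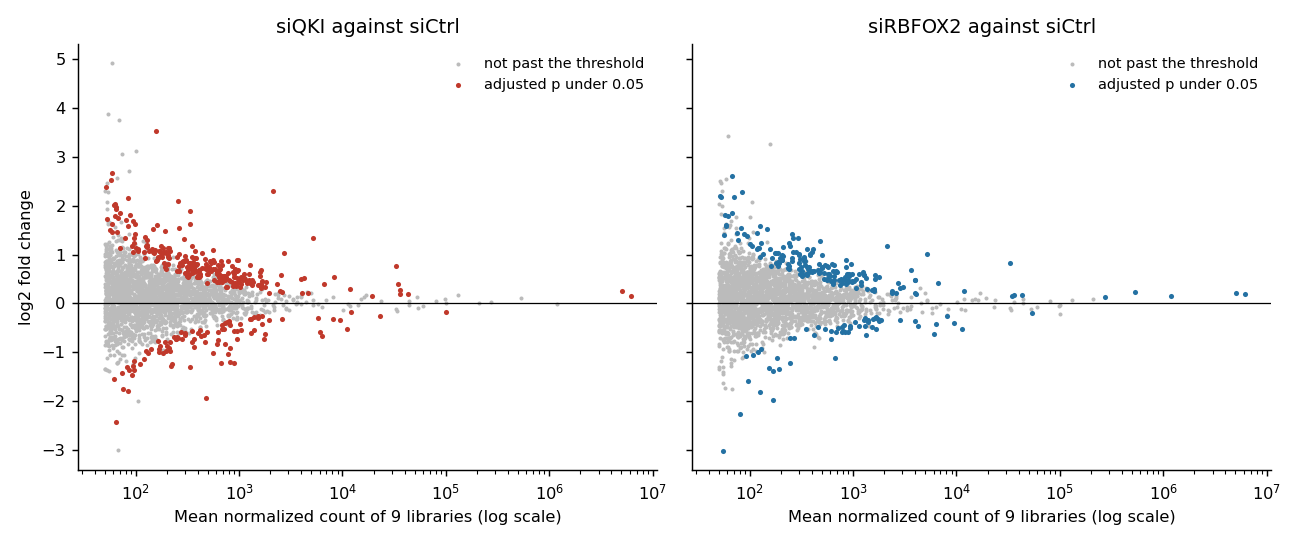
Log2 fold change against siCtrl (y axis) of each locus against its mean normalized count over the 9 PANC-1 libraries (x axis, log scale), for siQKI (left) and siRBFOX2 (right). Coloured points passed the limma test at an adjusted p under 0.05 and grey points did not. The scatter narrows with level, and most coloured points lie above 0.

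By class, loci over exons, the largest class, had 91 higher and 41 lower in siQKI and 67 and 17 in siRBFOX2. They passed in 15.3% and 9.76% of cases, beside 13.0% and 9.02% of all the loci and 33.0% and 26.5% of all rows tested. Long noncoding RNA matches gave 52 higher and 15 lower in siQKI and 35 and 13 in siRBFOX2, and intronic loci 47 and 14, then 34 and 12. The former passed in 15% and 10.7% of cases, the latter in 10.2% and 7.72%. Pseudogene matches were balanced, with 7 higher and 7 lower in siQKI and 4 and 4 in siRBFOX2 (20.3% and 11.6% passed). Short loci passed least often, in 6.8% of cases in siQKI and 5.1% in siRBFOX2, at a median standard error of 0.382 against 0.330 over all the loci.

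The abundant noncoding RNA NEAT1, the scaffold of nuclear paraspeckles, rose in both knockdowns. Its row (GSHG0006364, chr11:65422798-65445599) read 23728, 20726 and 22313 in siCtrl, 35959, 38165 and 39125 in siQKI and 34084, 40281 and 43849 in siRBFOX2. Every knockdown library lay above every siCtrl library, and the change was 1.70-fold in siQKI (log2 0.76 ± 0.07, SE, limma, adjusted p = 1.47e-06) and 1.76-fold in siRBFOX2 (log2 0.82 ± 0.07, limma, adjusted p = 1.49e-06). GSHG0046694, a row over part of NORAD, a noncoding RNA that binds Pumilio proteins, rose by 0.40 in siQKI (limma, adjusted p = 6.62e-06) and by 0.15 in siRBFOX2 (limma, adjusted p = 0.0236). NEAT1 and NORAD were named after their values were seen.

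The strongest rise in siQKI among well-covered loci was at FARP1, a gene for a guanine nucleotide exchange factor linked to cell adhesion. GSHG0011250 (chr13:98399286-98407492) overlaps an exon of FARP1. It read 900.82, 738.59 and 709.3 in siCtrl, 3624, 3602.6 and 4230.6 in siQKI and 1807.7, 2000.9 and 1525.5 in siRBFOX2. All knockdown libraries lay above all siCtrl libraries, and the siQKI libraries lay above those of siRBFOX2. It was 4.89-fold higher in siQKI (log2 2.29 ± 0.12, SE, limma, adjusted p = 2.59e-09) and 2.27-fold higher in siRBFOX2 (log2 1.18 ± 0.12, limma, adjusted p = 4.01e-06). The FARP1 row fell by 0.67 in siQKI (limma, adjusted p = 5.72e-08) and by 0.30 in siRBFOX2 (limma, adjusted p = 0.000231).

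The other large rises in siQKI, by the rule of the 5 largest with separated libraries, were of low rows. GSHG0031864, which lies outside genes on chromosome 3, read 34.463, 8.995 and 12.073 in siCtrl and 123.16, 70.64 and 132.11 in siQKI (log2 2.67 ± 0.59, SE, limma, adjusted p = 0.00237). GSHG0016488 matched AC009102.1, a sense-intronic RNA within GNAO1, a gene for a G protein subunit. It read 14.359, 17.99 and 9.0549 in siCtrl, 78.683, 68.023 and 75.491 in siQKI and 88.334, 58.11 and 52.796 in siRBFOX2, higher by 2.39 (limma, adjusted p = 0.00238) and 2.20 (limma, adjusted p = 0.00576). GSHG0029525 and GSHG0016263, of 53 and 56 bases, rose by 2.51 (limma, adjusted p = 0.00638) and 2.15 (limma, adjusted p = 0.0311) in siQKI. The latter did not pass without siCtrl replicate 1 (adjusted p = 0.0589), siCtrl replicate 2 (0.11) or siQKI replicate 1 (0.189).

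The clearest fall in siQKI lay in a long intergenic stretch. GSHG0004679 (chr10:3555604-3626133), inside the extent of the noncoding RNA LOC105376360 and outside GENCODE genes, read 754.35, 703.61 and 643.9 in siCtrl, 168.77, 226.74 and 161.47 in siQKI and 517.39, 416.45 and 674.3 in siRBFOX2. The siQKI libraries lay below all others, 3.79-fold lower than siCtrl (log2 -1.92 ± 0.21, SE, limma, adjusted p = 3.99e-06), while siRBFOX2 read -0.41 (limma, adjusted p = 0.171). The LOC105376360 row itself averaged 1.9532, too low to test.

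The other falls in siQKI were of rows with a mean under 100. GSHG0030027 over DUSP7, a phosphatase of ERK kinases, read 54.566, 128.93 and 96.585 in siCtrl and 10.263, 28.779 and 12.582 in siQKI, a change of -2.42 ± 0.56 (SE, limma, adjusted p = 0.00326), and the DUSP7 row fell by 0.73 (limma, adjusted p = 1.47e-05). GSHG0017497 over CMIP fell by 1.79 (limma, adjusted p = 0.00619), and the CMIP row by 0.75 (limma, adjusted p = 1.87e-08). GSHG0034648 (AC093535.2) fell by 1.75 and GSHG0012880 over RTRAF by 1.54 (limma, adjusted p = 0.0255 and 0.0333). These last rows lost the test without either of 2 siCtrl libraries or either of 2 siQKI libraries, at adjusted p-values of 0.105, 0.0632, 0.0516 and 0.105 for GSHG0034648 without siCtrl replicates 2 and 3 and siQKI replicates 1 and 3. For GSHG0012880 they were 0.119, 0.084, 0.0944 and 0.0908 without siCtrl replicates 1 and 2 and siQKI replicates 1 and 2.

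In siRBFOX2 the largest rise was GSHG0037498 (chr6:3904925-3911979), which matched the long noncoding RNA AL590004.3. It read 22.975, 17.99 and 15.091 in siCtrl, 126.19, 92.975 and 136.16 in siRBFOX2 and 64.999, 68.023 and 59.764 in siQKI. The siRBFOX2 change was 6.07-fold (log2 2.60 ± 0.45, SE, limma, adjusted p = 0.000566) and that in siQKI 3.36-fold (log2 1.75 ± 0.45, limma, adjusted p = 0.00753). GSHG0006354 (AP003068.4) rose by 2.18 (limma, adjusted p = 0.00884), GSHG0049159 over CDK13, a kinase of RNA polymerase II, by 2.18 (limma, adjusted p = 0.0127), and GSHG0016263 by 2.28 (limma, adjusted p = 0.028). GSHG0049159 did not pass without siRBFOX2 replicate 2 (adjusted p = 0.0565), nor did GSHG0016263 (0.0506), which also failed without siRBFOX2 replicate 1 (0.132), siCtrl replicate 1 (0.056) and siCtrl replicate 2 (0.1).

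The falls in siRBFOX2 included loci inside ARSJ, FBXO32 and DUSP6. GSHG0032870, in an intron of the sulfatase gene ARSJ, read 114.88, 134.92 and 187.13 in siCtrl and 47.322, 20.338 and 25.008 in siRBFOX2, a change of -2.26 ± 0.45 (SE, limma, adjusted p = 0.00165), while the ARSJ row read 0.02 (limma, adjusted p = 0.875). GSHG0042694, in an intron of FBXO32, a ubiquitin ligase subunit, read 272.83, 332.81 and 259.57 in siCtrl, 171.05, 154.36 and 113.24 in siQKI and 66.251, 66.826 and 86.14 in siRBFOX2. The 3 groups did not overlap, and it fell by 1.97 ± 0.29 in siRBFOX2 (SE, limma, adjusted p = 0.000148), where the FBXO32 row fell by 0.68 (limma, adjusted p = 7.33e-05).

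GSHG0009295 matched AC024909.2, an antisense RNA at DUSP6, a phosphatase of ERK kinases whose messenger RNA is induced by ERK signalling. It fell by 1.80 ± 0.46 in siRBFOX2 (SE, limma, adjusted p = 0.00885), and the DUSP6 row fell by 1.44 (limma, adjusted p = 1.15e-09). GSHG0041143 (AC016831.4, near LINC-PINT) fell by 3.01 (limma, adjusted p = 0.0431) and GSHG0002670 over BCAR3, an adaptor protein gene, by 1.59 (limma, adjusted p = 0.0357). GSHG0041143 did not pass without any 1 of 7 libraries, namely all siCtrl libraries, all siQKI libraries and siRBFOX2 replicate 3, at adjusted p-values from 0.0507 to 0.119. GSHG0002670 did not pass without siCtrl replicate 1, 2 or 3 or siRBFOX2 replicate 2, at adjusted p-values of 0.0635, 0.117, 0.0677 and 0.122.

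The knockdowns were also compared with each other. Between siQKI and siRBFOX2, 176 loci (6.70%) differed, beside 21.5% of all rows, with 94 higher in siQKI (beside 9.93%) and 82 lower (beside 11.6%). Both knockdowns were read against the same siCtrl libraries, so their changes are not independent. GSHG0038355 (chr6:122436789-122439223) passed in opposite directions, at 1358.4, 1480.2 and 1469.9 in siCtrl, 2262.4, 2261.3 and 2408.4 in siQKI and 1362.9, 1086.6 and 1093 in siRBFOX2. It was 0.69 higher in siQKI and 0.29 lower in siRBFOX2 than siCtrl (limma, adjusted p = 8.73e-05 and 0.0476). GSHG0032286, a row over MRFAP1L2, read 7667, 7100 and 7191.6 in siCtrl, 10549, 10842 and 10433 in siQKI and 6850.1, 6830.8 and 6687.5 in siRBFOX2, and rose in siQKI by 0.54 ± 0.05 (SE, limma, adjusted p = 8.25e-07) with siRBFOX2 at -0.11 (limma, adjusted p = 0.129).

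Whether a locus moved with the named row that it overlaps most was asked for the 1795 loci whose overlapped row was also tested. That row is not always the gene that GENCODE gives at the locus. In siQKI 202 of them passed, and for 120 of these the overlapped row passed too, 93 in the same direction and 27 in the opposite direction. In siRBFOX2 134 passed, the overlapped row with 56 of them, 40 in the same and 16 in the opposite direction. Rows with a symbol and a mean of at least 50 passed in 45.7% of cases in siQKI and 37.1% in siRBFOX2 whether or not they held such a locus. The log2 ratio of locus to overlapped row, a result added after the data were seen, changed in 51 of the 1795 loci in siQKI (2.84%, 35 higher and 16 lower) and in 21 in siRBFOX2 (1.17%, 13 higher and 8 lower). Of those in siRBFOX2, GSHG0012340 and GSHG0013037 lie at JDP2 and an antisense RNA there. They were set against the FOS row, which fell by 2.37 in siRBFOX2 (limma, adjusted p = 2.23e-08). GSHG0029452 was set against the row of RBFOX2, the target of the siRNA. Over all 3626 rows without a symbol that had such a ratio, the same 51 and 21 were the whole of those that passed, 1.41% and 0.579%. These counts were 17 to 54 and 8 to 18 with 1 library left out, and 3 and 2 without the trend of variance with level.

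**Figure D4:**
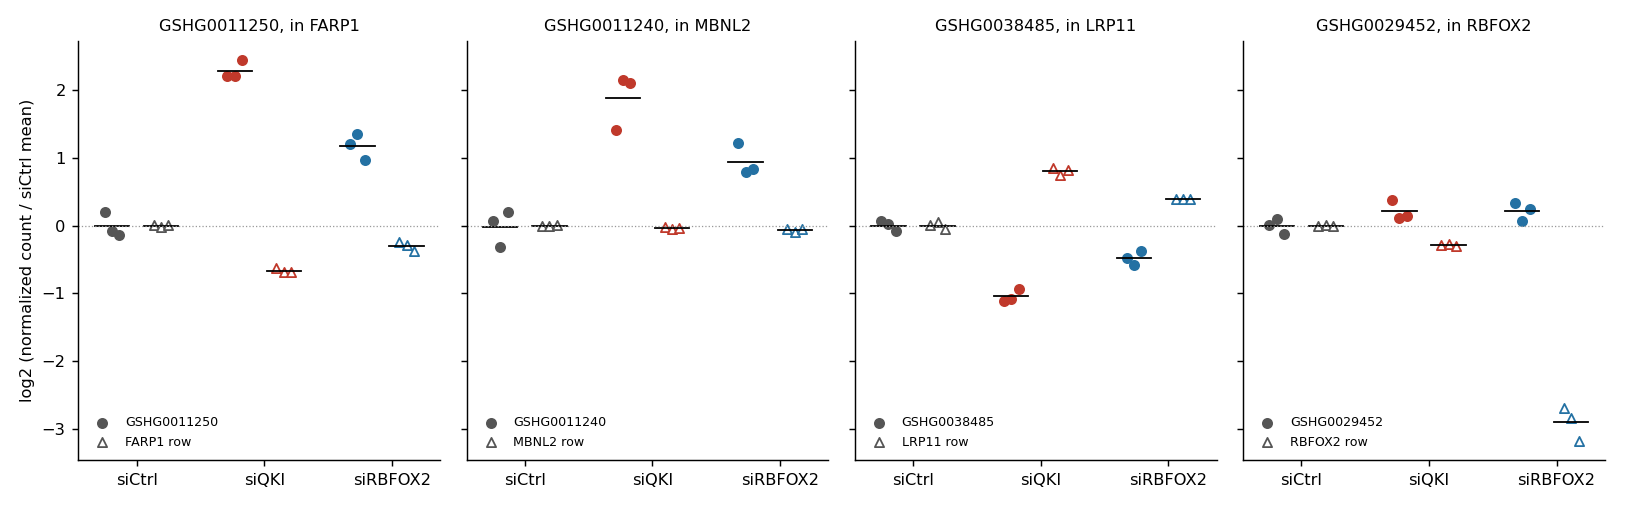
Log2 of the normalized count over the siCtrl mean, with 1 added to each, for 4 loci (filled circles) and the named row that each overlaps (open triangles) in the PANC-1 libraries. Symbols are libraries (n = 3 per group), short lines are means of the log2 values. The FARP1 and MBNL2 loci rise while their genes fall or stay near 0, the LRP11 locus falls while LRP11 rises, and the locus in RBFOX2 stays near 0 in siRBFOX2 where the RBFOX2 row falls.

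At FARP1 the ratio of GSHG0011250 to the gene rose by 2.96 ± 0.14 in siQKI (SE, limma, adjusted p = 2.74e-09) and by 1.48 ± 0.14 in siRBFOX2 (limma, adjusted p = 2.08e-05). A neighbouring locus, GSHG0011249 (chr13:98397155-98397898), read 116.79, 93.948 and 98.597 in siCtrl and 314.73, 305.23 and 253.73 in siQKI, and its ratio to FARP1 rose by 2.16 in siQKI (limma, adjusted p = 0.000253). Further along the same chromosome, GSHG0011240 (chr13:97351976-97354039) lies in an intron of MBNL2, itself a splicing regulator. It read 157.95, 119.93 and 172.04 in siCtrl and 400.25, 664.53 and 644.82 in siQKI, 3.73-fold higher (log2 1.90 ± 0.25, limma, adjusted p = 2.71e-05), while the MBNL2 row read -0.04 (limma, adjusted p = 0.469).

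LRP11, a gene of the LDL receptor family, showed the reverse. The intronic locus GSHG0038485 (chr6:149820949-149822684) read 1112.4, 1077.4 and 1007.1 in siCtrl and 491.48, 504.94 and 555.7 in siQKI. It fell by 1.04 ± 0.12 (SE, limma, adjusted p = 1.1e-05) where LRP11 rose by 0.80 (limma, adjusted p = 3.03e-09), and the ratio fell by 1.84 (limma, adjusted p = 2.5e-06). GSHG0023104 over VRK3, a kinase gene, was 0.82 higher in siQKI while VRK3 was 0.59 lower, with a ratio change of 1.42 (limma, adjusted p = 0.000997). GSHG0018687, the locus of 29 bases in CSNK1D whose sequence is given above, read 278.57, 455.75 and 455.76 in siCtrl and 827.88, 913.08 and 732.89 in siQKI, with a ratio change of 1.27 (limma, adjusted p = 0.00467). These loci and those of MBNL2 were chosen after their values were seen.

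No locus overlapped QKI, and 1 lay inside RBFOX2. GSHG0029452 (chr22:35838278-35839433) is in an intron of RBFOX2, at a place where RefSeq puts RPL41P3, a copy of a ribosomal protein gene. It read 4554.8, 4830.3 and 4143.1 in siCtrl, 5880.7, 4875.9 and 4968.8 in siQKI and 5670.2, 4738.8 and 5326.8 in siRBFOX2. The siRBFOX2 libraries overlapped those of siCtrl (log2 0.22 ± 0.09, SE, limma, adjusted p = 0.078) although the RBFOX2 row fell by 2.89, and the ratio of locus to gene rose by 3.11 ± 0.14 (limma, adjusted p = 7.57e-10). RBFOX2 is the target of this siRNA, so the ratio had to rise unless the locus fell too, and its p-value adds no support. The row of RPL41, the parent gene, read 0.14 in siRBFOX2 (limma, adjusted p = 0.397).

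The loci also lay in groups. With gaps of at most 10000 bases, 731 loci formed 263 runs of 2 to 21. Neighbours closer than a read pair may count the same fragments, so members of a run are not independent. In siQKI, 15 runs held at least 2 loci that rose and 4 held at least 2 that fell, and in siRBFOX2 there were 9 and 5. The runs below were chosen after their values were seen.

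The run at AC005077.4, a processed pseudogene beside MDH2 on chromosome 7, was lower in siQKI. Its 6 loci (chr7:76072213-76075000, 5 of them of at most 50 bases) summed to 3694, 3628 and 3775 normalized counts in siCtrl, 2314, 2212 and 2148 in siQKI and 3216, 2989 and 3028 in siRBFOX2. The 5 loci that passed in siQKI fell by 0.59 to 1.30, the sixth read -0.46 (limma, adjusted p = 0.0765), and none of the 6 passed in siRBFOX2. MDH2, the mitochondrial malate dehydrogenase, read 0.02 in siQKI (limma, adjusted p = 0.74).

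A run of 3 loci outside the RNF130 row, over exons that GENCODE gives to RNF130, a ubiquitin ligase, held 2 loci that rose in siQKI. The third, GSHG0036123, read 1.67 (limma, adjusted p = 0.057). The largest, GSHG0036124 (chr5:179913375-179916509), read 249.85, 155.91 and 178.08 in siCtrl, 677.35, 528.49 and 563.04 in siQKI and 280.78, 212.1 and 141.71 in siRBFOX2. It was 3.06-fold higher in siQKI (log2 1.62 ± 0.27, SE, limma, adjusted p = 0.000233), at 0.09 in siRBFOX2 (limma, adjusted p = 0.844), and differed between the knockdowns by 1.52 (limma, adjusted p = 0.000691). The RNF130 row read 0.12 in siQKI (limma, adjusted p = 0.102).

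Levels in HPAF-II were set beside those of PANC-1 siCtrl as rescaled counts, with the total of a library set to 1000000. The tables of the lines were normalized separately, so no test was made, and a locus counts as different when the means are at least 2-fold apart and the libraries of the lines do not overlap. By this rule 463 loci (17.6%) were higher in HPAF-II, beside 21.1% of 24673 rows with a mean of at least 10 in either line, and 581 (22.1%) were lower, beside 21.6%. The median log2 ratio was -0.08, also -0.08 for rows with a symbol and a PANC-1 mean of at least 50. The loci were chosen for their level in PANC-1, which tilts this count toward lower values in HPAF-II. When rows without a symbol were chosen by an HPAF-II mean of at least 50 instead, 965 of 2611 (37.0%) were higher and 165 (6.32%) lower, and 1959 rows met both limits. With the deposited values and no rescaling, 335 loci were higher and 717 lower.

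Of the 2628 loci, 157 were listed at 0 in every HPAF-II library, beside 1692 of the 24673 rows with a mean of at least 10 in either line. They lay on several chromosomes, 29 of 115 loci on chromosome 15, 28 of 146 on chromosome 19, 17 of 71 on chromosome X and 15 of 74 on chromosome 22. The 17 on chromosome X form 1 run. On chromosome 22, 13 of the 15 lie in a run of 14 loci at AP000350.4, and members of a run are not independent. On chromosome 19, which carries large clusters of zinc finger genes, 70 of 146 loci (47.9%) were lower in HPAF-II and 13 higher. Over all the loci 22.1% were lower, and the share over all rows of that chromosome was not computed. GSHG0022677 (chr19:27730273-27746230), over exons of LINC00662, read 1505.8, 1574.1 and 1455.8 in PANC-1 siCtrl and 0 in the HPAF-II libraries, where the LINC00662 row was listed at 0 as well. GSHG0022645, over an exon of the zinc finger gene ZNF43, read 1063.6, 1068.4 and 1110.7 in PANC-1 siCtrl and 0 in HPAF-II, as did the ZNF43 row. GSHG0048366, which matched ERVK9-11, a transcript of an endogenous retrovirus, read 513.11, 346.81 and 396.4 in PANC-1 siCtrl and was listed at 0 in HPAF-II. These 3 were named after their values were seen.

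The lowest ratios in HPAF-II belonged to the T cell receptor beta region, the MRFAP1L2 row and a run on chromosome X. GSHG0047570 (chr7:142300952-142802751), a row of 501800 bases over the T cell receptor beta genes and the trypsinogen genes PRSS1 and PRSS2, stood at 26.66 ± 0.705 rescaled counts in PANC-1 siCtrl (SD, n = 3) and was listed at 0 in HPAF-II. The row of PRSS2 itself averaged 7.378 normalized counts in PANC-1. GSHG0032286 over MRFAP1L2 stood at 21.28 ± 1.19 rescaled counts in PANC-1 and 0.01372 ± 0.014 in HPAF-II (SD, n = 3 each), 1550-fold apart.

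The run on chromosome X holds 17 loci (chrX:9403475-9413665, 12 of at most 50 bases) over the pseudogenes AC073488.1, AC073488.7, AC073488.8 and AC073488.9, with TBL1X the nearest named row. They summed to 52.74, 54.17 and 54.88 rescaled counts in PANC-1 siCtrl and to 0 in each HPAF-II library. GSHG0046325, the most abundant of them at a mean of 3554.7, passed neither knockdown test (limma, adjusted p = 0.948 and 0.514). GSHG0046327, a locus of 49 bases whose sequence recurs in 6 other annotated transcripts of that region, fell by 0.33 in siRBFOX2 (limma, adjusted p = 0.0126), and not without siCtrl replicate 2 (adjusted p = 0.0605), siRBFOX2 replicate 1 (0.0578) or siRBFOX2 replicate 3 (0.0563).

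**Figure D5:**
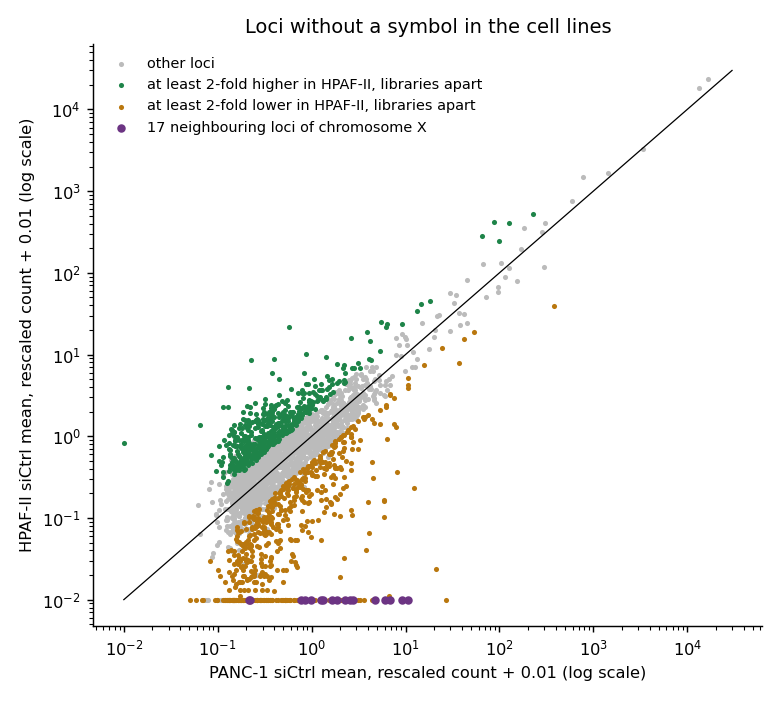
Mean rescaled counts, with 0.01 added, of each locus in HPAF-II siCtrl (y axis, log scale) against PANC-1 siCtrl (x axis, log scale). Green and orange points are at least 2-fold apart with libraries that do not overlap, purple points are the 17 neighbouring loci of chromosome X, and the line marks equal levels. Points along the lowest edge are listed at 0 in HPAF-II.

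Loci higher in HPAF-II were led by long noncoding RNAs. GSHG0003501 (chr1:205434887-205437881) matched BLACAT1, a noncoding RNA first described in bladder cancer, and stood at 0.2162 ± 0.124 rescaled counts in PANC-1 siCtrl and 8.647 ± 1.38 in HPAF-II (SD, n = 3 each), 40.0-fold apart. GSHG0003119 (AL365181.3, antisense at BCAN) was 38.2-fold higher, GSHG0019542, in an intron of a read-through transcript at ARHGAP27P1, was 33.7-fold higher and GSHG0040166 (AC073957.3, antisense at GET4) was 22.9-fold higher. GSHG0022731 (AC008555.1) was at 0 in PANC-1 siCtrl and at 0.8138 ± 0.962 rescaled counts in HPAF-II (SD, n = 3), with 1 HPAF-II library at 546.93 normalized counts and the others at 77.751 and 68.739. The row also varied within PANC-1, with 0, 149.13 and 179.29 in siQKI and 0, 199.51 and 0 in siRBFOX2, values that reach above those of 2 HPAF-II libraries. NEAT1 stood at 64.73 ± 5.25 in PANC-1 and 285.0 ± 29.7 in HPAF-II, and the NORAD row at 86.94 ± 5.69 and 416.8 ± 38.7 (SD, n = 3 each).

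Rows at the ribosomal RNA repeats varied widely between libraries of the same group. GSHG0050248 (chr21:8395860-8401808), in a ribosomal RNA repeat, read 60104, 161270 and 173230 in PANC-1 siCtrl and 3633.3, 4135.8 and 25257 in HPAF-II. GSHG0050249, on the same chromosome, read 9415.3, 11836 and 78247 in HPAF-II, where the library with the high value was also the one with the lowest mitochondrial share, 2.862%. The part that ribosomal RNA carry-over had in these values was not tested.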

How the data were processed

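Tables of FAST DB genes were analysed as deposited, 1 for PANC-1 and 1 for HPAF-II. Per the labels, polyA-selected libraries were sequenced in read pairs of 150 bases, aligned to hg38 with STAR 2.7.5a, and SAMtools, Picard, FastQC and DESeq2 are named in the submitters' processing notes. The study's software list names featureCounts beside a different STAR version. Which counter made these tables, and its use of strand and of reads with several matches, is not given in the sources used here. The deposited values are a signal, namely counts that the authors divided by a size factor within each table. Columns of fold changes and p-values in the tables were not used.

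Loci were rows without a gene symbol and a mean of at least 50 over 9 PANC-1 libraries. The members and lists were chosen with earlier results of these data known. Rows with a mean of at least 10 were fitted with limma 3.58.1 in R 4.3.3 on log2(value + 1) over all 9 PANC-1 libraries with a trend of variance with level, and p-values were adjusted by Benjamini-Hochberg over the 22544 rows at a threshold of 0.05. Fold changes are on that scale, which understates the change of low rows. Row names follow a rule: QKI and RBFOX2, the 10 highest means, the 5 highest means that overlap no symbol, the 5 largest rises and falls per knockdown past the threshold with separated libraries, the 5 largest ratios per direction between the lines, loci in QKI or RBFOX2, 3 rows on each side of the limit, and the named row beside each. Other names were chosen after their values were seen. Rows of chromosome Y were not named or plotted.

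Between the lines, libraries were rescaled to a total of 1000000 and log2 ratios taken with 0.01 added. Annotation was by position with GENCODE release 29 and RefSeq (GRCh38.p14). Sequences came from GENCODE transcripts, and windows of 50 bases were matched exactly. The fit was tested on simulated data. Library shares were compared by exact permutation. Libraries were not treated as paired, since same-numbered ones showed no shared deviations. Alternatives were pseudocounts, filters, upper-quartile rescaling, a replicate block, no trend, 2 groups only and each library left out.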

Additional observations from a re-analysis of the deposited data

Results flagged for a closer look

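Of the 176 loci that differed between siQKI and siRBFOX2, 13 are given here (limma, adjusted p, siQKI over siRBFOX2 on the log2 scale). The first 7 are those among the largest changes of either knockdown. That choice used libraries that this comparison uses again, so their p-values lean toward a difference and add no support. GSHG0004679 on chromosome 10 differed by -1.51 (8.03e-05) and GSHG0011250 in FARP1 by 1.11 (9.03e-06), and both differences passed with each library left out. GSHG0030027 over DUSP7 differed by -2.30 (0.00747) and GSHG0034648 (AC093535.2) by -2.51 (0.00437). GSHG0012880 over RTRAF differed by -1.83 (0.0196), and not without siQKI replicate 1 (0.0619), siQKI replicate 2 (0.0609) or siRBFOX2 replicate 2 (0.0879). GSHG0009295 at DUSP6 differed by 1.52 (0.0279), and not without siQKI replicates 1, 2 or 3 (0.0993, 0.051 and 0.0622) or siRBFOX2 replicate 2 (0.0824). GSHG0042694 in FBXO32 differed by 0.98 (0.0254), and not without siQKI replicates 1 or 2 (0.0967 and 0.0795) or siRBFOX2 replicates 1 or 2 (0.0656 and 0.0551).

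The other 6 were picked because they passed against siCtrl in opposite directions in the knockdowns, which fixes that they differ, so their p-values describe and add no support. GSHG0006952 (chr11:880867-882176) read 0.51 in siQKI and -0.46 in siRBFOX2 and differed by 0.97 (4.99e-07). GSHG0038355 differed by 0.98 (6.77e-06), GSHG0047856 (chr11:90194506-90198120) by 0.75 (2.3e-05), and GSHG0020502 by 0.85 (0.000166). The reverse order held for GSHG0043585 (chr9:95018891-95022279) at -0.87 (0.000141) and for GSHG0022677 over LINC00662 at -0.52 (0.000438). All 13 p-values rest on 3 libraries a group.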

How the results depend on the processing

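Loci that passed numbered 342 in siQKI, 237 in siRBFOX2 and 176 between the knockdowns. With 1 library left out the counts were 215 to 362, 164 to 227 and 118 to 188, the lowest in siQKI without siQKI replicate 3. Among loci that overlap no named row they were 131, 92 and 65, since fewer loci enter, and with a change of at least 1.5-fold 145 in siRBFOX2. Between the lines, the 1044 loci at least 2-fold apart became 506 at 4-fold and 345 among loci that overlap no named row, and 1082 to 1201 with 1 library left out. The locus-to-gene ratio, added after the data were seen, depended most on the settings: 51 loci in siQKI became 3 without the variance trend and 17 to 54 with 1 library left out, and 21 in siRBFOX2 became 12 at a pseudocount of 0.1, 33 at a pseudocount of 10, 2 without the trend and 8 to 18 with 1 library left out. The cause was not tested.

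Deviations of same-numbered libraries correlated at -0.03246 to 0.02347, and those of differently numbered ones at -0.03332 to 0.03836. The replicate numbers thus showed no pairing in the values. Whether libraries were paired when made is not given in the sources used here. With the replicate number as a block, 321, 217 and 158 loci passed, 44 of the 47 named calls held, and the ratio changed in 43 and 17 loci. Of the named calls, 33 to 47 held in each alternative, 25 held in all 17, and 0 reversed. Upper-quartile rescaling gave 309 higher and 65 lower in siQKI. The planned edgeR fit was not run, because the values could not be turned into whole fragments, and overlap on the same strand was not run, because coordinates carry no strand. Depth limits rows near a mean of 50, where the standard error of a log2 change was about 0.484.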
